A study of Homo sapiens with 16 samples.

Results

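Transcription of 8 genes of the death receptor pathway was measured in LNCaP cells: FAS, TNFRSF10A, TNFRSF10B, TNFRSF10C, TNFRSF10D, TNFRSF1A, FADD and CASP8. They were chosen by name as the receptors for the Fas ligand, for the ligand TRAIL and for tumour necrosis factor, with the adaptor and the initiator caspase that these receptors use, and all 8 were found among the 60605 Ensembl gene identifiers of the count tables. LNCaP is an established human prostate cancer line that keeps a functional p53 gene. The assay was PRO-seq, a nuclear run-on in which engaged RNA polymerases are mapped, so a count reports transcription under way and not stored messenger RNA.

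There were 16 libraries in 2 experimental batches, and the labels name no engineered allele in any group. Batch 1 held mock cells and cells given 6 Gy of ionizing radiation (IR), each as replicates 1 and 2. Batch 2 held 4 groups with replicates 3 and 4: DMSO vehicle for 90 min, vehicle for 30 min and then 6 Gy with 60 min of further incubation, 10 µM of the prostate cancer drug enzalutamide for 90 min, and enzalutamide for 30 min before 6 Gy and the same 60 min. The treatment protocol in the labels describes these 4 arms and gives no separate timing for batch 1. In batch 1 each replicate number carries a t1 and a t2 library, a distinction the labels do not explain, and their counts were summed into 1 replicate. Nothing in the labels says that replicates came from separate cultures, so p-values measure the spread between these samples, which may be technical.

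FAS, TRAIL receptor 1 (TNFRSF10A) and TRAIL receptor 2 (TNFRSF10B) carry an intracellular death domain. Ligand binding brings the adaptor FADD to that domain, FADD recruits procaspase 8, and the caspases that follow dismantle the cell. TNFRSF10C and TNFRSF10D bind TRAIL without a working death domain and are known as decoy receptors. TNFRSF1A, the main receptor for tumour necrosis factor, signals first through other adaptors and reaches FADD and caspase 8 by a second route. FAS and several TRAIL receptor genes are textbook targets of p53, the transcription factor that DNA damage activates, and FAS is known for a p53-responsive element in its first intron.

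The FAS sequences are shown because FAS changed most among the 8 genes, and a CASP8 sequence because it holds the same kind of motif in a gene that did not pass the test in any of the main comparisons. RefSeq (GRCh38.p14) promoter windows run from 250 bases before to 50 bases after a transcript start. They were at hand for 4 of the 8 genes, 8 windows in all. These genes were FAS, TNFRSF1A, FADD and CASP8, so no window of a TRAIL receptor gene could be examined. Capitals mark matches on either strand to the p53 half-site consensus, to the GC box GGGCGG and to the TATA box TATAAA; none of the marked matches overlap.
FAS, chr10:88990548-88990847, plus strand: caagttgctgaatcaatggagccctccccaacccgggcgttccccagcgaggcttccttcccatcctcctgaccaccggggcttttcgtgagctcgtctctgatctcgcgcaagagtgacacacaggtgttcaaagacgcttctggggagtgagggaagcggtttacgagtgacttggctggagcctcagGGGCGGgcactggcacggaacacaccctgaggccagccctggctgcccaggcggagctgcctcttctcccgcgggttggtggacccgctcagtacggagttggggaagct
FAS, chr10:88991181-88991480, plus strand: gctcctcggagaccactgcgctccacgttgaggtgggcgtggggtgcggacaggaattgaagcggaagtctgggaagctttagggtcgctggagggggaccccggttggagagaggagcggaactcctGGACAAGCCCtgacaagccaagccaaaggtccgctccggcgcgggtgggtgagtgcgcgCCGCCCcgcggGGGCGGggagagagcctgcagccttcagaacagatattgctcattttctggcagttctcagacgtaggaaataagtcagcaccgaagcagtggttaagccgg
CASP8, chr2:201257785-201258084, plus strand: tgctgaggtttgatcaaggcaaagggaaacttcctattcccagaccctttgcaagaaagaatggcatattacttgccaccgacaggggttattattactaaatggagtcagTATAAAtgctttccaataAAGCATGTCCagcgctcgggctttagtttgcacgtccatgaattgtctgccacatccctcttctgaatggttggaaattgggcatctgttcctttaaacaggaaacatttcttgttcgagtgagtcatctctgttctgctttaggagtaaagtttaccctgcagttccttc

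The most upstream FAS window holds 1 GC box and no p53 match. The downstream FAS window holds 1 p53 match at chr10:88991309-88991318, which begins 511 bases after the most upstream FAS start in the table, and 2 GC boxes. The CASP8 window shown, which belongs to a start inside the gene, holds 1 p53 match and 1 TATA box. The windows not shown, of FAS, TNFRSF1A, FADD and CASP8, hold no p53 match. A p53 match was present in 6.63% of the 35116 RefSeq promoter windows, a GC box in 44.95% and a TATA box in 11.5%. These matches describe letters in the windows, and no binding was measured.

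FAS spans chr10:88964050-89017059 in RefSeq, TNFRSF1A spans chr12:6328771-6342076, FADD spans chr11:70203296-70207390 and CASP8 spans chr2:201233463-201287711. The 4 TRAIL receptor genes lie side by side on chromosome 8 in the order TNFRSF10B, TNFRSF10C, TNFRSF10D, TNFRSF10A, within 205 kb and with gaps of 33.9, 18.1 and 26.4 kb.

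Summed counts per sample ran from 8022989 to 16851473 in batch 1, and from 10494563 to 19905824 in the deeper batch 2. The 9 luminal prostate markers were detected in every sample, with a summed level of 2570 to 3482 CPM, where CPM is a gene's count scaled to its sample's TMM-normalised library size, computed for each batch separately. The 3 basal markers summed to 4.37 to 9.001 CPM. The 4 leukocyte markers summed to 45.3 to 65.4 CPM, of which CD68 made up 44.5 to 64.7 CPM, while PTPRC, the defining one, reached at most 0.903 CPM. The 3 endothelial markers summed to 15.5 to 36.6 CPM, with VWF at up to 31.4 CPM, and no marker of these lists was at 0 in any sample. The stromal list moved with IR, from 17.8 to 21.0 CPM in the mock cells of batch 1 to 31.9 to 33.4 CPM in its irradiated cells, through ACTA2, which overlaps FAS and is described with it; the part of that list in the FAS values was not tested. In these bulk samples more polymerases per cell and more responding cells cannot be told apart. With edgeR at an adjusted p of 0.05, 731 genes were called after IR in batch 1. In batch 2, 314 genes were called after IR with vehicle and 263 after IR with enzalutamide, and these counts were 1315 and 951 with the replicate number as a block.

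**Figure D1:**
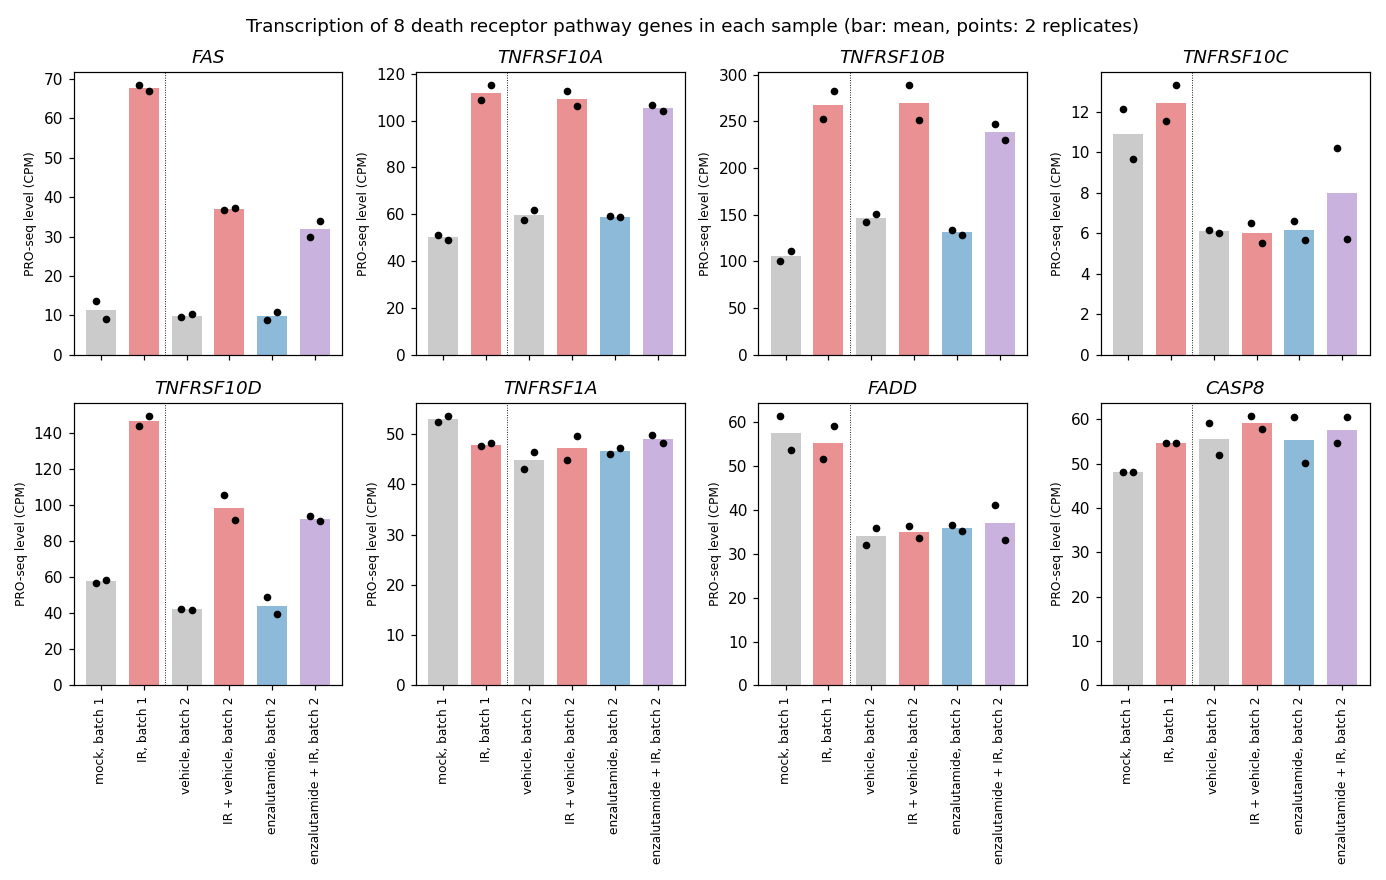
PRO-seq level in CPM (linear axis from 0) of each of the 8 genes in the 6 groups; bars are group means, points are the 2 replicates, and a dotted line divides the batches. FAS, TNFRSF10A, TNFRSF10B and TNFRSF10D were higher in every irradiated sample than in every unirradiated sample of the same batch, while TNFRSF10C stayed between 5.51 and 13.3 CPM throughout.

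Transcription of FAS and of 3 of the 4 TRAIL receptor genes rose after 6 Gy, in both batches and with and without enzalutamide, while TNFRSF10C, TNFRSF1A, FADD and CASP8 did not pass the test. The question here was which steps of the pathway respond to IR. In batch 1, 4 of the 8 genes rose and none fell, where 2.00% of the 25889 genes tested rose and 2.82% were called in either direction. In vehicle cells of batch 2 the same 4 rose, against 0.743% of 28651 genes that rose and 1.10% called in either direction. In enzalutamide cells the same 4 rose once more, against 0.625% and 0.918%. The median log2 fold change of the 8 genes was 0.68, 0.48 and 0.59 in these comparisons, and that of all genes tested lay at 0.00, -0.01 and -0.01. A single fit over both batches called the same 4 genes, where 2.39% of 29195 genes rose and 4.05% were called in either direction.

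FAS, the receptor for the Fas ligand, changed most. Its level in batch 1 was 13.6 and 9.11 CPM in the mock replicates and 68.4 and 66.9 CPM in the irradiated ones. In batch 2 it was 9.46 and 10.3 CPM with vehicle, 36.7 and 37.2 CPM with IR and vehicle, 8.70 and 10.8 CPM with enzalutamide, and 29.8 and 34.0 CPM with both. Irradiated and unirradiated samples lay far apart in each batch, and the irradiated batch 1 samples were the highest of all, although levels were scaled within each batch. The log2 fold change was 2.58 (SE 0.153, n = 2 per group, edgeR adjusted p = 9.9e-07) in batch 1, a 5.99-fold difference with a 95% interval of 4.76 to 7.55. It was 1.90 (SE 0.135, n = 2 per group, edgeR adjusted p = 3.7e-06) in vehicle cells and 1.73 (SE 0.139, n = 2 per group, edgeR adjusted p = 1.5e-05) in enzalutamide cells. FAS ranked 36th by fold change among the 25889 genes of batch 1, and 31st and 35th among the 28651 genes of the batch 2 comparisons.

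**Figure D2:**
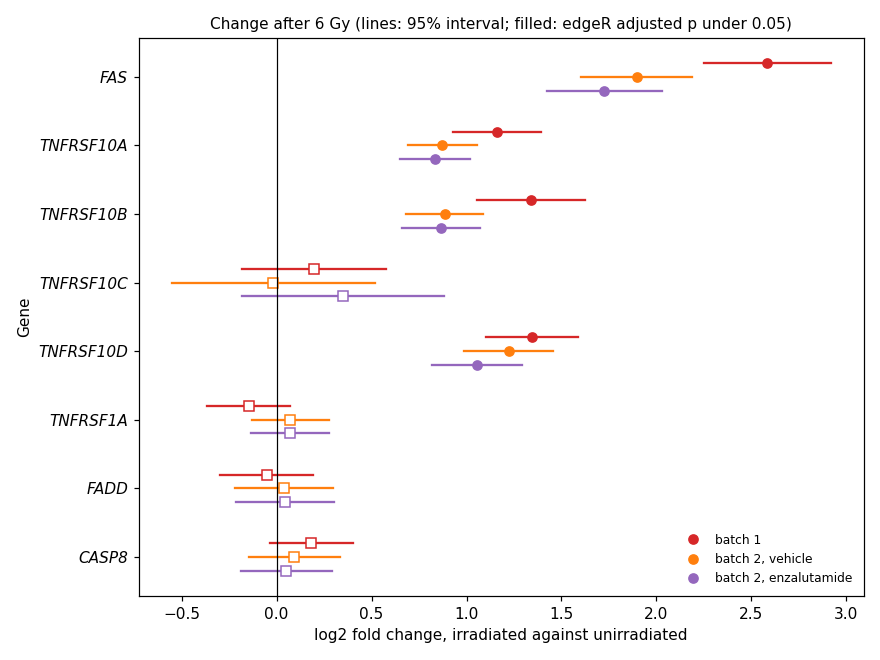
log2 fold change after 6 Gy of the 8 genes in batch 1, in vehicle cells of batch 2 and in enzalutamide cells of batch 2, with 95% intervals (n = 2 per group); filled circles passed an edgeR adjusted p of 0.05, open squares did not. FAS lies at 1.73 to 2.58, the 3 TRAIL receptor genes that rose at 0.84 to 1.34, and every interval of the other 4 genes spans 0.

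TNFRSF10B encodes TRAIL receptor 2, a death domain receptor, and had the highest CPM of the 8 genes in unirradiated cells. Its level in batch 1 was 101 and 111 CPM in mock cells and 252 and 282 CPM after IR. With vehicle in batch 2 it was 142 and 150 CPM, against 289 and 251 CPM with IR and vehicle, 134 and 128 CPM with enzalutamide, and 247 and 230 CPM with both. The groups did not overlap, and the irradiated levels of the batches overlapped while the mock cells lay below the vehicle cells. The log2 fold change was 1.34 in batch 1 (SE 0.130, edgeR adjusted p = 5.4e-05), 0.88 in vehicle cells (SE 0.094, edgeR adjusted p = 0.00018) and 0.87 in enzalutamide cells (SE 0.095, edgeR adjusted p = 0.00026).

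TNFRSF10A encodes TRAIL receptor 1, the other death domain receptor for TRAIL. It measured 51.3 and 49.0 CPM in mock cells and 109 and 115 CPM after IR in batch 1. The batch 2 levels were 57.6 and 61.9 CPM with vehicle and 113 and 106 CPM with IR and vehicle, 59.1 and 58.8 CPM with enzalutamide and 107 and 104 CPM with both. Irradiated samples of all groups lay within 104 to 115 CPM, and unirradiated ones within 49.0 to 61.9 CPM. The log2 fold change was 1.16 in batch 1 (SE 0.107, edgeR adjusted p = 3.6e-05), 0.87 in vehicle cells (SE 0.084, edgeR adjusted p = 7.8e-05) and 0.84 in enzalutamide cells (edgeR adjusted p = 0.00014).

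The decoy receptor genes did not move alike. TNFRSF10D, whose product has a truncated death domain, measured 56.9 and 58.5 CPM in mock cells and 144 and 149 CPM after IR in batch 1. Its batch 2 levels were 42.5 and 41.8 CPM with vehicle, 105 and 91.5 CPM with IR and vehicle, 48.7 and 39.8 CPM with enzalutamide, and 94.0 and 91.0 CPM with both. It rose without overlap in each comparison, by a log2 fold change of 1.34 (SE 0.111, edgeR adjusted p = 1.5e-05), 1.22 (SE 0.108, edgeR adjusted p = 3.6e-05) and 1.05 (edgeR adjusted p = 0.00016). In vehicle cells its change of 1.22 stood above the 0.88 of TNFRSF10B and the 0.87 of TNFRSF10A, a gap between genes that was not tested.

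TNFRSF10C encodes a decoy receptor held in the membrane by a lipid anchor. It measured 12.1 and 9.66 CPM in mock cells and 11.5 and 13.3 CPM after IR in batch 1. Batch 2 levels were lower, with 6.14 and 6.02 CPM with vehicle, 6.48 and 5.51 CPM with IR and vehicle, 6.61 and 5.65 CPM with enzalutamide, and 10.2 and 5.72 CPM with both. All these groups overlapped their controls. The log2 fold change was 0.20 (95% interval -0.18 to 0.58), -0.02 (-0.55 to 0.52) and 0.35 (-0.18 to 0.88), and over both batches 0.08 (-0.19 to 0.36). That last upper bound lies below the lower bound of each of the other TRAIL receptor genes over both batches, of which TNFRSF10A's, 0.84, was the lowest. TNFRSF10C had only 61 to 222 counts per sample, which makes it the least precisely measured gene here.

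Decoy receptor counts, TNFRSF10C and TNFRSF10D together, made up 31.2% and 29.9% of all TRAIL receptor counts in mock cells and 30.1% and 29.0% after IR in batch 1. In batch 2 the shares were 19.6% and 18.4% with vehicle, 21.8% and 21.3% with IR and vehicle, 22.3% and 19.6% with enzalutamide, and 22.7% and 22.4% with both. The share differed more between batches than between treatments within a batch.

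TNFRSF1A, the receptor for tumour necrosis factor, measured 52.5 and 53.6 CPM in mock cells and 47.6 and 48.3 CPM after IR in batch 1. In batch 2 it lay between 43.1 and 49.8 CPM in all 8 samples. The batch 1 groups did not overlap, yet the log2 fold change of -0.15 (edgeR adjusted p = 0.68) did not pass, and the batch 2 values of 0.07 in vehicle and 0.07 in enzalutamide cells had the other sign.

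FADD, the adaptor, measured 61.4 and 53.7 CPM in mock cells and 51.6 and 59.1 CPM after IR in batch 1, and 32.0 to 41.1 CPM in batch 2. CASP8, the initiator caspase, measured 48.3 and 48.1 CPM in mock cells and 54.7 and 54.7 CPM after IR in batch 1, and 50.2 to 60.7 CPM in batch 2. Neither passed the test in any comparison of the summed libraries. Over both batches the log2 fold change after IR was -0.02 for FADD (95% interval -0.18 to 0.15) and 0.13 for CASP8 (-0.02 to 0.28). For TNFRSF1A it was -0.04 (-0.20 to 0.11), so none of these 3 intervals reaches the 0.84 that bounds the TRAIL receptor changes from below.

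The t1 and t2 libraries of batch 1 gave different pictures of some of these genes. Over all genes, the t1 and t2 libraries of 1 replicate differed more (chi-square per degree of freedom 7.65 and 17.6 in mock and 15.0 and 34.7 in irradiated cells) than libraries of the same t did between replicates (7.14 and 3.28 in mock and 4.37 and 4.03 in irradiated cells). FAS rose by 2.72 on the log2 scale in t1 libraries alone and by 2.48 in t2 libraries alone, TNFRSF10A by 1.23 and 1.10, TNFRSF10B by 0.97 and 1.76, and TNFRSF10D by 1.21 and 1.48. All 4 passed in both sets. In t2 libraries alone 3 further genes passed: TNFRSF10C at 0.82 (edgeR adjusted p = 0.0090), CASP8 at 0.44 (edgeR adjusted p = 0.0049) and FADD at -0.46 (edgeR adjusted p = 0.0038). In t1 libraries alone the same 3 genes lay at -0.33, -0.05 and 0.30 and did not pass. With t2 libraries alone edgeR called 9800 genes and with t1 libraries alone 3995, against 731 for the sums. Mitochondrial genes made up 2.87% and 2.86% of counts in irradiated t1 libraries and 5.38% and 4.47% in irradiated t2 libraries. In mock cells they made up 4.25% and 5.06% in t1 and 3.24% and 3.94% in t2 libraries. The step from t1 to t2 thus ran opposite ways in mock and irradiated cells. Its part in the IR changes of either set alone was not tested.

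Within batch 2, the order of the group means for FAS was IR with vehicle, IR with enzalutamide, vehicle and enzalutamide. The first and the second did not overlap, and neither did the second and the third, while vehicle and enzalutamide did. TNFRSF10B had the same order with no overlap between any neighbours: 270 ± 26.6 CPM (SD, n = 2), 239 CPM, 146 ± 5.83 CPM (SD, n = 2) and 131 CPM. For TNFRSF10A and TNFRSF10D the irradiated groups overlapped each other and so did the unirradiated ones. For TNFRSF10C, TNFRSF1A, FADD and CASP8 all neighbouring groups of batch 2 overlapped. Further apart in the order, TNFRSF1A with enzalutamide (46.1 and 47.3 CPM) lay below enzalutamide with IR (49.8 and 48.3 CPM) without overlap. That change did not pass (edgeR adjusted p = 0.87). With 2 samples per group such gaps are a description, and the share of all genes that show them is not given here.

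Levels were compared between genes per kb of RefSeq gene span, since the counted region is not given in the sources used here. In vehicle cells FADD was highest at 8.30 ± 0.679 CPM per kb (SD, n = 2), followed by TNFRSF1A at 3.37 ± 0.181, TNFRSF10B at 2.99 ± 0.119, TNFRSF10A at 1.72 ± 0.0862, TNFRSF10D at 1.48 ± 0.0154, CASP8 at 1.02 ± 0.0948, TNFRSF10C at 0.419 ± 0.00593 and FAS at 0.187 ± 0.0119. FAS was the least transcribed of the 8 genes per kb before IR. After IR with vehicle it stood at 0.696 ± 0.00649 CPM per kb, above TNFRSF10C at 0.412 ± 0.0471. Counted from its most upstream start in the promoter table, the FAS span is 26.3 kb, and its level would be 0.377 CPM per kb with vehicle and 1.41 after IR, still the lowest before IR.

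Enzalutamide did not change any of the 8 genes past the threshold. The question was whether the drug changes their transcription or their response to IR. Averaged over IR and no IR, edgeR called 0 of 8 genes at an adjusted p of 0.05, where 0.0628% of all genes were called, all of them lower. DESeq2 also called 0 of 8. By edgeR 1 member, TNFRSF10B, had an unadjusted p under 0.05, as 1780 of the 28651 genes tested did. It lay at -0.17 on the log2 scale (SE 0.060, edgeR adjusted p = 0.74). Its enzalutamide samples lay below those with vehicle without overlap both before and after IR. The share of all genes without such overlap is not given here, and with 2 samples per group this is a description only. FAS lay at -0.14 (95% interval -0.34 to 0.055).

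The interaction of IR and enzalutamide was called by edgeR in 0 of 8 genes and in 0.00% of all genes, by DESeq2 in 0 of 8 and in 0 of all genes. No member had an unadjusted p under 0.05, as 343 of the 28651 genes did. The estimate for FAS was -0.17 (95% interval -0.59 to 0.25), for TNFRSF10B -0.02 (-0.31 to 0.27), for TNFRSF10A -0.04 (-0.29 to 0.22) and for TNFRSF10D -0.17 (-0.50 to 0.16). For TNFRSF10B and TNFRSF10A a difference of more than 0.31 in either direction lies outside the interval. For TNFRSF10C, at 0.37, the interval of -0.38 to 1.12 is too wide to say much. IR effects with vehicle and with enzalutamide rest on separate samples of the same batch.

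The IR effect was larger in batch 1 than in batch 2 for FAS by 0.66 on the log2 scale (SE 0.201, edgeR adjusted p = 0.57) and for TNFRSF10B by 0.43 (edgeR adjusted p = 0.78). Neither passed. In all, edgeR called 0 of 8 genes and DESeq2 0 of 8, where edgeR called 0.106% of all genes. Both FAS and TNFRSF10B (2 genes) had an unadjusted p under 0.05 by edgeR, as 1651 of the 29195 genes tested did. With t2 libraries alone, where edgeR called 5646 genes in all, TNFRSF10B passed at 0.88 (edgeR adjusted p = 0.00072) and FADD at -0.50 (edgeR adjusted p = 0.031). The part of the difference between t1 and t2 libraries in these values was not tested either. Batch and the protocol of its control cells, mock or vehicle, cannot be told apart.

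**Figure D3:**
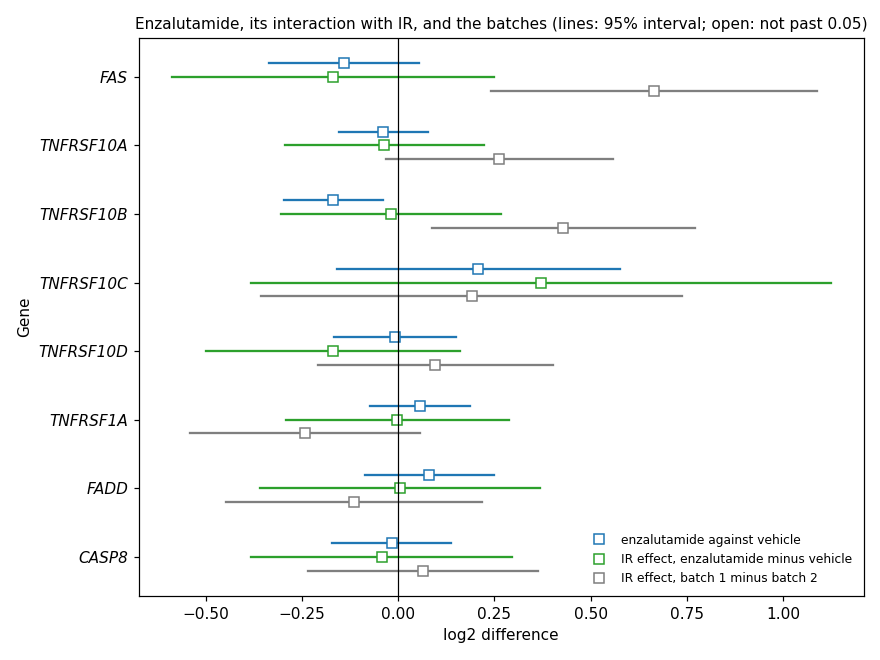
log2 difference of the 8 genes for enzalutamide against vehicle averaged over IR, for the IR effect with enzalutamide minus that with vehicle, and for the IR effect in batch 1 minus batch 2, with 95% intervals; open squares did not pass an edgeR adjusted p of 0.05. The batch difference of FAS, at 0.66, is the largest value, and no square is filled.

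Genes that rose and genes that did not lay side by side. TNFRSF10C sits 33.9 kb from TNFRSF10B and 18.1 kb from TNFRSF10D, which both rose. The tested genes next to the cluster were not called either. RHOBTB2, which overlaps the end of TNFRSF10B, lay at 0.02, 0.11 and 0.19 on the log2 scale in the 3 IR comparisons, and CHMP7, 18.5 kb beyond TNFRSF10A, at 0.20, 0.10 and 0.13. TNFRSF10A-DT, a noncoding transcript 0.118 kb from TNFRSF10A that has 2 identifiers, lay at 0.44 for the more highly counted one in batch 1 (edgeR adjusted p = 0.19).

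At the FAS locus, ACTA2 encodes smooth muscle actin and is known to lie on the other strand, with 27288 bases inside the RefSeq span of FAS. Most of that stretch lies before chr10:88990798, the most upstream FAS start in the promoter table. Whether it was counted for FAS is not given. ACTA2 measured 8.50 and 8.12 CPM in mock cells and 24.2 and 23.3 CPM after IR in batch 1. With vehicle in batch 2 it measured 3.55 and 4.43 CPM, and 9.34 and 11.6 CPM with IR and vehicle. ACTA2 rose by 1.51 in batch 1 (edgeR adjusted p = 5.6e-05), 1.38 in vehicle cells (edgeR adjusted p = 0.0018) and 1.08 in enzalutamide cells (edgeR adjusted p = 0.020). The last call was lost without either replicate of the enzalutamide and IR group (edgeR adjusted p = 0.16 and 0.12), without replicate 3 of the enzalutamide group (0.086) and with only the groups compared (0.055). The use of strand in counting is not given in the sources used here, so reads of ACTA2 and FAS in the shared stretch cannot be told apart and both values are uncertain there. STAMBPL1, 40.6 kb from FAS, was not called at -0.35, -0.11 and -0.09. The noncoding gene ACTA2-AS1, 24.1 kb from FAS, was not called at -0.36, -0.34 and 0.45. Its group means were low, at 0.910 to 1.84 CPM.

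**Figure D4:**
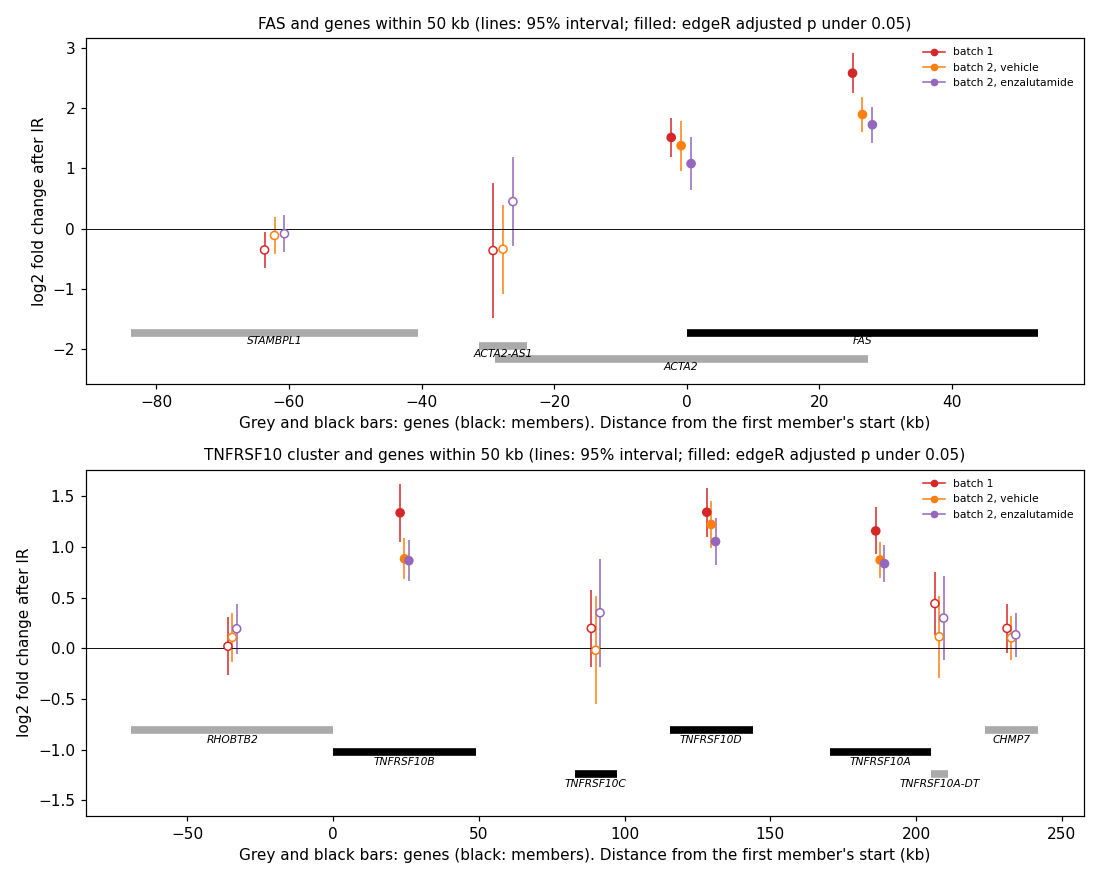
log2 fold change after 6 Gy (points with 95% intervals, filled where the edgeR adjusted p was under 0.05) of FAS, of the TRAIL receptor cluster and of tested genes within 50 kb, placed at the middle of each gene along the distance in kb from the first member's start; black bars are members and grey bars other genes. ACTA2 is the only neighbour with filled points, and TNFRSF10C lies near 0 between TNFRSF10B and TNFRSF10D.

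The rest of the pathway was taken as a list of 48 further genes. It held 6 ligands, 8 other receptors, 13 genes listed as receptor complex and adaptors, 13 inhibitors of caspase activation and 8 effectors downstream of caspase 8. FLACC1, a neighbour of CASP8, was counted with the receptor complex and adaptors, and nothing here shows that it belongs to that complex. After IR in batch 1, 3 of the 42 tested, FLACC1 among them, rose and none fell, against the 2.00% of all genes. In vehicle cells and in enzalutamide cells of batch 2, 1 of 43 rose, against 0.743% and 0.625%. The median log2 fold change of the list was 0.02, 0.09 and 0.09. None of the 8 effectors, which include BID, passed in any of these comparisons, and none of the other receptors tested did, 7 in batch 1 and 8 in batch 2. Enzalutamide, its interaction with IR and the difference between batches each gave 0 calls in the list by edgeR and by DESeq2. By edgeR 3, 1 and 5 of the 43 tested had an unadjusted p under 0.05. Over all genes 1780 of 28651, 343 of 28651 and 1651 of 29195 did. With t2 libraries alone edgeR called 5646 genes in all for the difference between batches, and 9 of them were in the list. Among these were FLACC1 at 1.52 (edgeR adjusted p = 0.0026) and TNFAIP8 at 0.68 (edgeR adjusted p = 0.0037).

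TNFAIP8, listed with the inhibitors as a protein known to hold back caspase 8, rose in each IR comparison. Its mean went from 57.1 ± 0.377 to 118 ± 3.80 CPM (SD, n = 2) in batch 1, a log2 fold change of 1.05 (edgeR adjusted p = 8.3e-05). In vehicle cells it went from 68.7 ± 1.32 to 104 ± 4.28 CPM (SD, n = 2), by 0.60 (edgeR adjusted p = 0.0020), and in enzalutamide cells from 59.8 ± 1.85 to 83.7 ± 4.32 CPM (SD, n = 2), by 0.48 (edgeR adjusted p = 0.014). Without replicate 3 or 4 of the enzalutamide and IR group the last value did not pass (edgeR adjusted p = 0.058 and 0.26), nor with only the groups compared (0.061). For enzalutamide averaged over IR it lay at -0.26, which passed only with the replicate block (edgeR adjusted p = 0.0065, against 0.25 without it).

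TNFSF15, a ligand of death receptor 3, rose in batch 1 from 5.25 ± 0.179 to 12.3 ± 1.37 CPM (SD, n = 2), by 1.23 on the log2 scale (edgeR adjusted p = 0.0024). In batch 2 it lay at 0.81 with vehicle (edgeR adjusted p = 0.060) and 0.78 with enzalutamide (edgeR adjusted p = 0.12), and both passed with the replicate block (adjusted p = 0.0026 and 0.0079), the first also with DESeq2 (adjusted p = 0.036). PIDD1, which assembles the complex that activates caspase 2 and carries a death domain, rose over both batches by 0.29 (edgeR adjusted p = 0.030). In batch 2 alone it lay at 0.35 with vehicle and 0.35 with enzalutamide, values that passed with the replicate block (edgeR adjusted p = 0.0081 and 0.015) and not without it (0.15 and 0.20). The call over both batches was lost in 6 of 15 alternatives, among them leaving out any of 4 single replicates: batch 1 IR replicate 1, mock replicate 2, IR with vehicle replicate 3 or vehicle replicate 3 (edgeR adjusted p = 0.098, 0.052, 0.096 and 0.13).

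FLACC1, which lies 0.559 kb from CASP8, rose in batch 1 by 0.76 (edgeR adjusted p = 0.043) from 6.45 ± 0.427 to 10.9 ± 0.386 CPM (SD, n = 2). It lay at -0.28 and 0.01 in batch 2, and its batch 1 call was lost without IR replicate 2 or mock replicate 2 (edgeR adjusted p = 0.15 and 0.061), with DESeq2 (adjusted p = 0.32) and with t1 libraries alone (edgeR adjusted p = 0.44). Of the members' own ligands, none was called. TNF and LTA, the ligand genes of TNFRSF1A, had 0 counts in every sample, which allows up to 0.153 to 0.375 CPM per sample (3 counts, counting error only), and were not tested. FASLG, the Fas ligand gene, averaged 0.121 to 0.245 CPM in the 6 groups and was not tested. TNFSF10, which encodes TRAIL, averaged 7.25 and 8.40 CPM in batch 1 before and after IR and 2.00 to 2.78 CPM in batch 2, and was not called in any comparison.

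**Figure D5:**
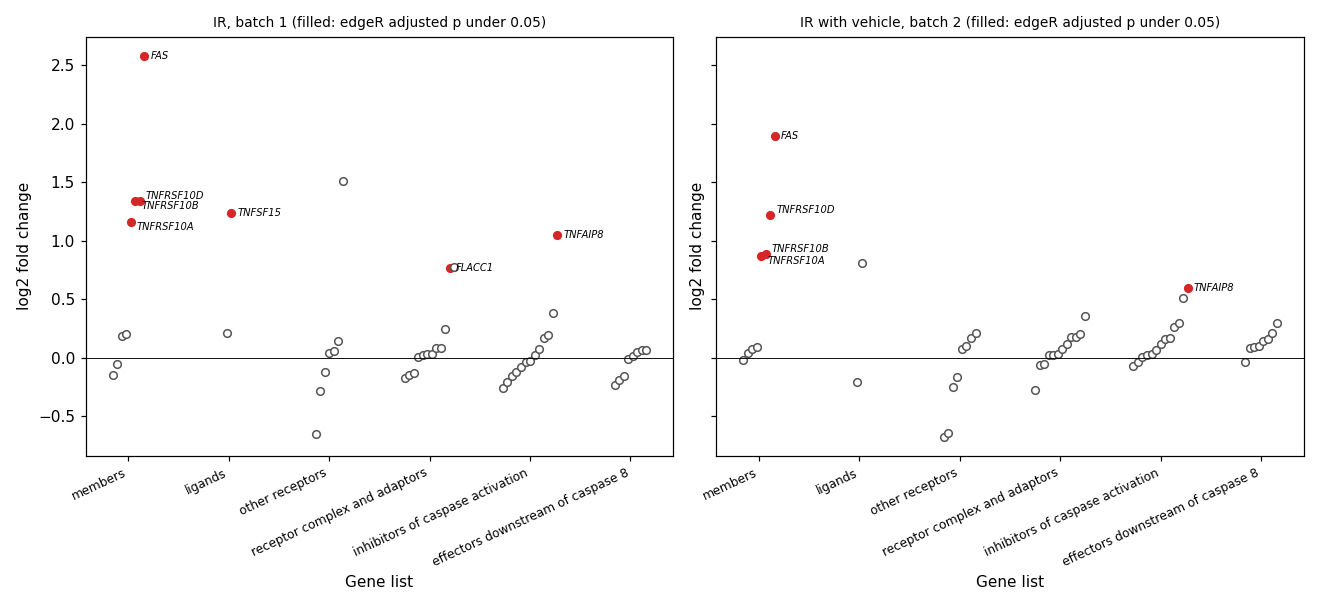
log2 fold change after 6 Gy of the 8 members and of the tested genes in 5 lists of the wider pathway, in batch 1 (left) and in vehicle cells of batch 2 (right); each point is a gene, and filled points passed an edgeR adjusted p of 0.05. The filled points outside the members are TNFSF15, FLACC1 and TNFAIP8 on the left and TNFAIP8 on the right; the high open point on the left is EDA2R, pointed out after its value was seen, at 1.51 (edgeR adjusted p = 0.090) from 0.712 to 2.04 CPM.

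Across the 12 samples, after the mean of each batch was removed from log2 CPM, the genes most like FAS among 18674 were FAM210B (Pearson r = 0.996), LIF (0.995), EI24 (0.994), TRIAP1 (0.994) and CDIP1 (0.993). Those most like TNFRSF10B were FRMPD2 (r = 0.995), TP53I3 (0.994), DCP1B (0.994), GASK1B (0.993) and JAG1 (0.991). Among the members, FAS correlated with TNFRSF10A at 0.991, with TNFRSF10B at 0.970 and with TNFRSF10D at 0.969, and with TNFRSF10C at 0.306. These samples share their batches and the step from unirradiated to irradiated cells, and the correlations are given as a description.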

How the data were processed

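For each batch the authors deposited 1 table of raw counts, whole numbers by Ensembl identifier whose totals differ between libraries. The submitters' processing notes name cutadapt 1.8.1, Bowtie2 2.4.4, SAMtools 1.9 and hg38; the counting tool, annotation release, counted region and use of strand are not given in the sources used here. Of 60605 identifiers, 60463 matched the gene name table. Same-group libraries differed beyond counting noise (chi-square per degree of freedom 3.28 to 34.7 in 16 pairs), so no 2 libraries looked like 1 library deposited again; t1 and t2 counts were summed because they share a replicate number.

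Counts were tested with edgeR 4.0.16 in R 4.3.3 (quasi-likelihood, TMM, filterByExpr), with Benjamini-Hochberg adjustment over all genes tested. Batch 1 had a model of IR. Batch 2 had a model of IR, enzalutamide and their interaction, and another without the interaction for enzalutamide averaged over IR. Both batches together, without the enzalutamide groups, had a model of batch and IR. Another with the interaction of batch and IR gave the difference between batches. CPM scales counts to a sample's total times its TMM factor, computed within each batch. Correlations used log2 CPM with a prior count of 2 and genes with a mean of at least 50 counts. Alternatives were DESeq2 1.42.0, other scaling, no filter, the replicate block, single libraries and left-out replicates. In simulated data 200 genes with a mean of at least 50 counts were changed 2-fold. Samples were drawn independently, without t1 and t2 libraries or pairing. The batch 1 model recovered 92.5% of the changed genes after IR among 25379 genes, with 5.61% of its calls false. The batch 2 model with the interaction recovered 86.5% after IR with vehicle among 28093 genes, with 9.42% false. The model without it recovered 97% for enzalutamide averaged over IR among 28126 genes, with 10.2% false. Over both batches the model of batch and IR recovered 99% among 28416 genes, with 7.91% false.

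In batch 2, deviations of same-numbered samples correlated at 0.102 to 0.262 in all 6 pairs of groups, so the numbers may pair the samples. The main tests do not use this pairing. It enters only in the alternative with the replicate block. The pairing comes from this check and not from the labels.

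Members and lists were chosen with earlier results of these data known. Genes were named by rule: the 8 members, pathway genes called in any test, and FASLG and TNFSF10. The rule also took tested neighbours within 50 kb of FAS and of the TRAIL receptor cluster, and the 5 genes most like FAS and TNFRSF10B.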

Additional observations from a re-analysis of the deposited data

Results flagged for a closer look

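PLEKHG6, which lies 0.264 kb from TNFRSF1A, responded to IR differently in the batches: its IR effect in batch 1 minus that in batch 2 was -2.28 on the log2 scale (SE 0.294, edgeR adjusted p = 0.0023). It was named after its values were seen. In batch 1 it measured 13.0 and 11.97 CPM in mock cells and 11.8 and 11.4 CPM after IR. Its batch 2 levels were 6.26 and 11.0 CPM with vehicle, 33.1 and 44.8 CPM with IR and vehicle, 9.01 and 8.90 CPM with enzalutamide, and 34.7 and 18.5 CPM with both. It rose in vehicle cells by 2.16 (edgeR adjusted p = 0.0010), and all 15 alternatives of the batch difference passed, at -2.76 to -1.97. TNFRSF1A itself was not called in any comparison.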

How the results depend on the processing

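The 16 calls on members (FAS, TNFRSF10A, TNFRSF10B and TNFRSF10D in the 4 IR comparisons) passed in the same direction in all 216 alternative values run. Of 544 alternative values for the 40 uncalled member results, 5 passed, all with t2 libraries alone, and 62 had another sign without passing. Members called moved in 2 comparisons, both with t2 libraries alone: to 7 for IR in batch 1 and to 2 for the difference between batches.

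Counts over all genes moved more. For IR in batch 1, against 731 genes, 1157 were called with no filter, 2332 with the replicate block, 3995 with t1 libraries alone, 9800 with t2 libraries alone, and 587 to 1509 when 1 replicate was left out. For IR with vehicle, against 314, the counts were 624 with no filter, 1315 with the block and 161 to 511 without 1 replicate; for IR with enzalutamide, against 263, they were 556, 951 and 139 to 434. Over both batches, against 1182, they were 1954 with the block, 657 with t2 libraries alone and 897 to 1208 without 1 replicate. For enzalutamide averaged over IR, against 18, they were 59 with DESeq2, 230 with no filter, 272 with the block and 7 to 36 without 1 replicate. For the interaction, against 0, they were 32 with no filter, 1 with the block and 0 to 4 without 1 replicate. For the difference between batches, against 31, they were 119 with no filter, 96 with the block, 452 with t1 libraries, 5646 with t2 libraries and 21 to 45 without 1 replicate. The cause was not tested. The replicate block changed no member call; beyond the changes given for TNFAIP8, TNFSF15 and PIDD1, it also let PIDD1 pass for IR in batch 1 (0.24, edgeR adjusted p = 0.027), where a single pair of groups, correlated at 0.198, cannot show that the numbers pair the samples. Other pathway genes called after IR in batch 1 numbered 3, FLACC1 among them, with 7 under the block, 5 with t1 libraries and 14 with t2 libraries.

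With 2 samples per group, leaving out a replicate leaves a group with 1 sample, which is assumed to vary like the others. TNFRSF10C and FASLG are limited by depth.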
